A study of Homo sapiens with 6 samples.

Results

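The genes described here are 33 genes for heterogeneous nuclear ribonucleoproteins (hnRNPs) and related proteins that bind precursor messenger RNA (pre-mRNA). They were chosen by gene symbol from a fixed list of names, out of the 31966 genes of the deposited count table. All 33 symbols were found. MATR3 occurs on more than 1 row of the table, and the row with the larger total count was kept. The list was drawn up with results of the same knockdown contrast in view, so the fold changes below describe the members, and neither they nor the adjusted p-values support a statement about the family.

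The samples were Kasumi-1 cells, an established human acute myeloid leukaemia line with the RUNX1-RUNX1T1 fusion. In the FBL knockdown group (n = 3) a hairpin RNA against FBL was induced, and in the control group (n = 3) a hairpin against luciferase. Both groups received doxycycline, which turns the hairpins on, at 100 ng/ml for 72 h. FBL encodes fibrillarin, a nucleolar enzyme that methylates the ribose of ribosomal RNA at sites picked by box C/D guide RNAs. The labels state neither how many hairpin sequences were used per target nor whether replicates were separate cultures, so the p-values cover only sample-to-sample spread here, and that spread could be technical.

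hnRNPs coat nascent transcripts through RNA recognition motifs (RRMs) or KH domains and influence splice site choice, export, stability and translation. Several are expressed at high levels in dividing cells, and close relatives often act on the same transcripts or replace each other. Many also limit their own messenger RNA through unproductive splicing. Counts per gene do not separate such isoforms from the productive ones.

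Total counts ranged from 85556322 to 95023102 in FBL knockdown libraries and from 88541034 to 103148412 in control libraries. FBL itself had 54.0, 32.4 and 44.9 CPM (read counts scaled to the depth of each library, with TMM-adjusted totals) in FBL knockdown libraries, against 580, 550 and 544 CPM in control libraries. It was 12.7-fold lower in FBL knockdown, and every library matched its label. Of 9 markers of this line, 8 were at 1 CPM or more, and all 9 together summed to 5233 to 6261 CPM in FBL knockdown libraries and 6962 to 8463 CPM in control libraries. PTPRC, the leukocyte antigen CD45, was the exception at 0.954 CPM in FBL knockdown and 0.759 CPM in control libraries. Nearly all of the sum was MPO, at a mean of 5413 CPM in FBL knockdown and 7256 CPM in control libraries. Of the other markers, RUNX1, RUNX1T1, PTPRC, CEBPA and CD34 had higher means in FBL knockdown, and KIT, CD33 and SPI1 lower ones. Markers of erythroid cells (5 genes), T cells (3), epithelial cells (4) and fibroblasts (2) summed to at most 0.249 CPM per list in FBL knockdown and 0.389 CPM in control libraries. In bulk libraries such as these, fewer cells of a type and less RNA per cell cannot be told apart.

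FBL knockdown libraries held less messenger RNA of most of the 33 genes. In the comparison with control over all tested genes, 28 of the 33 members fell, none rose, and 5 did not pass (edgeR quasi-likelihood test, Benjamini-Hochberg adjusted p under 0.05 over 18486 genes). The 5 were RALY, PCBP2, PTBP3, HNRNPLL and HNRNPUL1. At an unadjusted p under 0.05, PCBP2 and PTBP3 were higher, and DESeq2 called both higher. Of all tested genes 32.6% were called, 16.9% lower and 15.7% higher. Higher genes made up 48.1% of these calls, or 58.6% with upper-quartile scaling, under which 25 members fell and PCBP2 and PTBP3 rose. Among the more abundant genes, where nearly all members lie, 27.5% of those at 100 CPM or more and 27.8% of those at 10 to 100 CPM were called lower. The member counts in these ranges were 9 of 12 and 16 of 18. Nothing about the family is read from these shares, since the members were listed with this contrast known. All 33 members passed the filter on low counts.

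The median log2 fold change (FBL knockdown over control) was -0.63 over the 33 members, against -0.01 over all tested genes and -0.07 over those at 100 CPM or more. Called members ranged from -0.32 for ELAVL1 to -1.48 for TAF15. A fall of at least 1.5-fold was found for 18 members and of at least 2-fold for 3, namely TAF15, HNRNPUL2 and HNRNPM. Adjusted p-values of the called members ran from 4.90e-05 for HNRNPUL2 to 0.0334 for MATR3 (edgeR quasi-likelihood test). FBL knockdown and control libraries did not overlap for 26 of the 28 called members. Among all tested genes, groups lay apart with lower values in FBL knockdown for 23.1% and with higher values for 22.1%. The members together held 3502, 3475 and 3425 CPM in the FBL knockdown libraries, against 4922, 4542 and 4542 CPM in the control libraries.

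**Figure D1:**
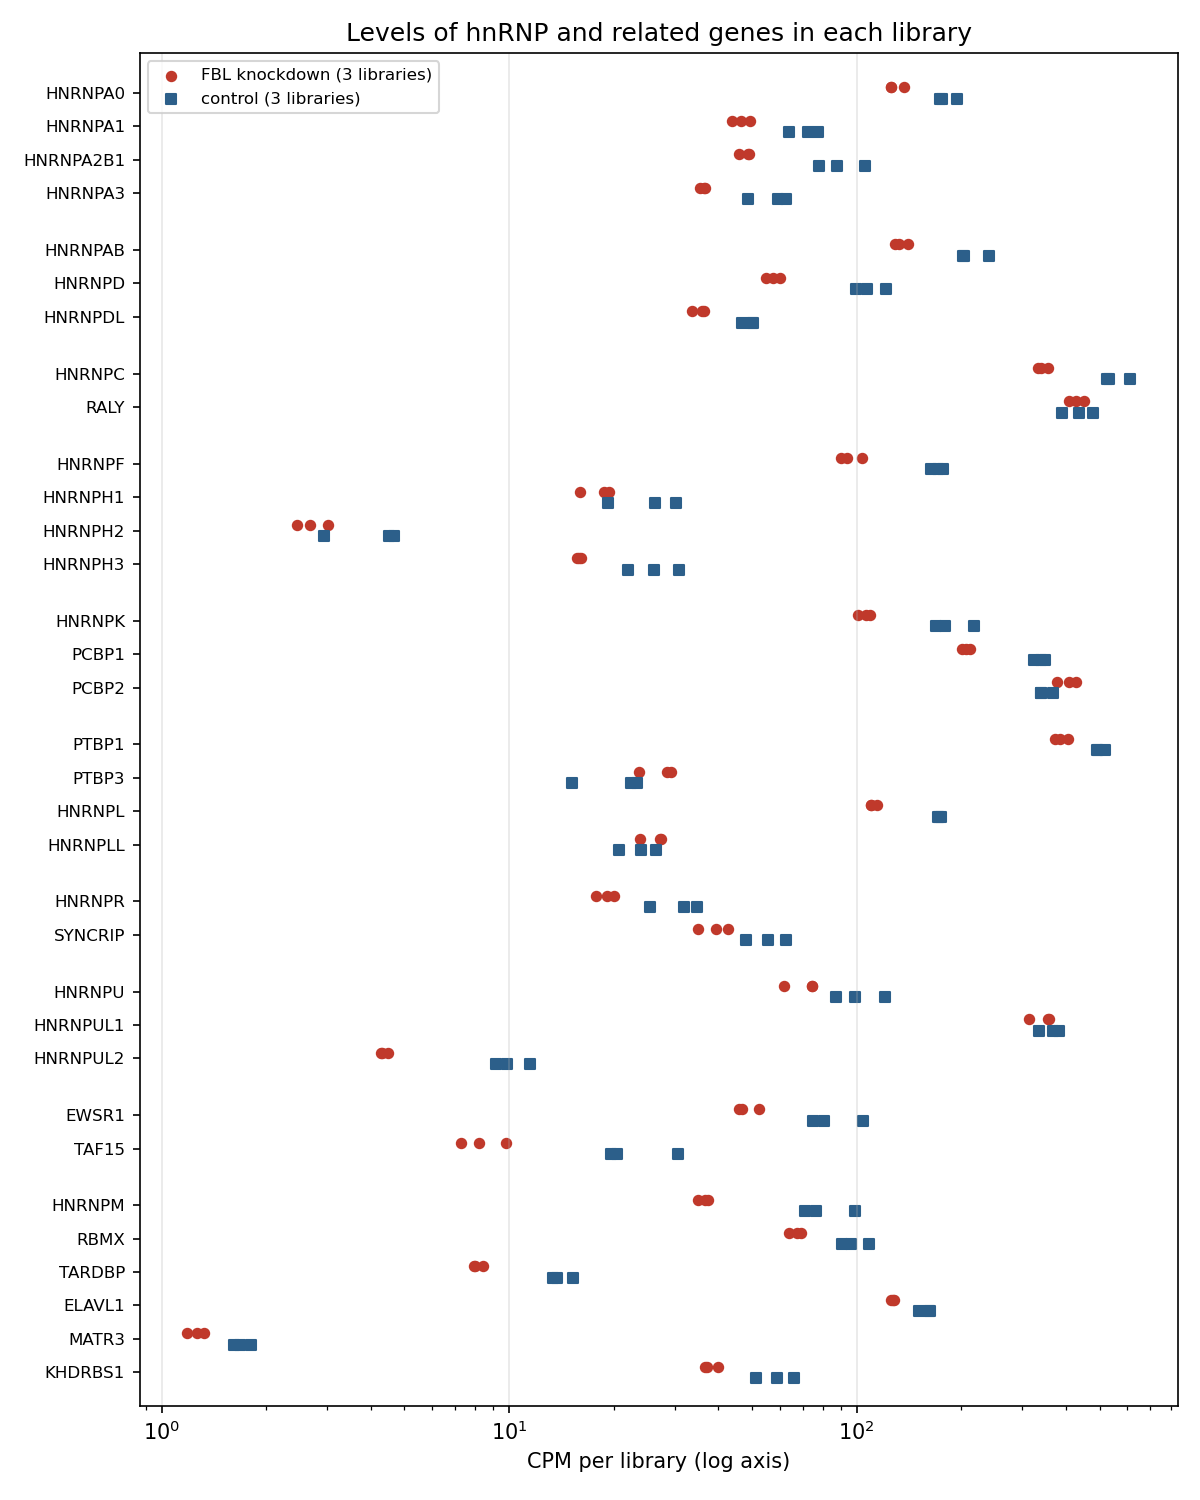
CPM of each member (rows, grouped by family) in the 3 FBL knockdown libraries (circles) and the 3 control libraries (squares), on a log axis. The groups lie apart with lower FBL knockdown values for 26 of 33 members, while RALY, HNRNPH1, HNRNPH2, HNRNPUL1 and HNRNPLL overlap and PCBP2 and PTBP3 lie apart in the other direction.

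The control libraries were the more variable group. Their coefficient of variation exceeded that of the FBL knockdown libraries for 27 of 33 members (medians 5.09% in FBL knockdown and 10.6% in control libraries), against 60.0% of all tested genes. Control replicate 1 was the highest control for 27 members and control replicate 2 the lowest for 21. Over all tested genes those shares were 43.6% and 41.4%. Control replicate 2 lay above every FBL knockdown library for 26 of the 28 members called lower, all but HNRNPH1 and HNRNPH2, and also for RALY and HNRNPUL1, which were not called. Without control replicate 1, the library with the highest member levels, 25 members were called lower and the median log2 fold change was -0.56. What sets this library apart was not tested.

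The FET proteins, which couple transcription to splicing and are fusion partners in sarcomas and leukaemias, included the largest fall. TAF15, on chromosome 17 (GRCh38, 35713791 to 35864615, plus strand), had 9.77, 7.28 and 8.19 CPM in FBL knockdown libraries, against 30.6, 19.6 and 20.4 CPM in control libraries. Every FBL knockdown library was below every control, a 2.80-fold lower level (log2 fold change -1.48 ± 0.17 SE). EWSR1, on chromosome 22 (29268009 to 29300525, plus strand), had 52.5, 45.9 and 46.9 CPM in FBL knockdown libraries, against 104, 74.7 and 80.4 CPM in control libraries (log2 fold change -0.84 ± 0.12). Its groups also lay apart. TAF15 took 23.2% ± 1.4 of the summed RPKM (depth-scaled counts per kilobase of gene length) of TAF15 and EWSR1 in FBL knockdown libraries and 32.0% ± 1.6 in control libraries (SD, n = 3 each).

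The A and B proteins, each with a pair of RRMs, all fell (4 of 4, median log2 fold change -0.64). HNRNPA1, a splicing silencer that opposes SR proteins, had 43.7, 46.4 and 49.4 CPM in FBL knockdown libraries and 77.6, 63.9 and 72.5 CPM in control libraries (-0.62 ± 0.09). HNRNPA2B1, a close relative that also takes part in RNA transport, had 49.1, 45.9 and 48.8 CPM in FBL knockdown libraries and 106, 77.8 and 87.6 CPM in control libraries (-0.91 ± 0.11). In neither gene did the groups overlap. HNRNPA3 had 36.3, 36.5 and 35.4 CPM in FBL knockdown libraries and 62.6, 48.6 and 59.4 CPM in control libraries (-0.66 ± 0.10). HNRNPA0, which binds AU-rich elements, had 137, 126 and 125 CPM in FBL knockdown libraries and 176, 195 and 173 CPM in control libraries (-0.49 ± 0.08), and it was the 1 A or B gene in which control replicate 1 was not the highest control. HNRNPA1 has many processed pseudogenes. Rows named as its pseudogenes, 47 in number, together held 47.4 ± 3.0 CPM in FBL knockdown libraries and 78.4 ± 7.7 CPM in control libraries (SD, n = 3 each), against 46.5 ± 2.9 CPM in FBL knockdown libraries and 71.4 ± 6.9 CPM in control libraries for the gene's own row. How reads were divided among these rows is unknown, so the level of HNRNPA1 is uncertain. Adding the pseudogene rows to the gene's gave a log2 ratio of -0.67, and the same sum with 11 pseudogene rows gave -0.74 for HNRNPA3.

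In the D group, HNRNPD (AUF1), a protein that promotes decay of AU-rich messages, fell by 0.93 ± 0.09 (log2, SE). It had 60.1, 54.9 and 57.6 CPM in FBL knockdown libraries and 121, 107 and 99.8 CPM in control libraries. HNRNPAB had 141, 129 and 133 CPM in FBL knockdown libraries and 240, 203 and 202 CPM in control libraries (-0.68 ± 0.09). HNRNPDL had 33.6, 36.3 and 35.9 CPM in FBL knockdown libraries and 50.0, 46.6 and 50.3 CPM in control libraries (-0.47 ± 0.08). In all 3 genes the groups lay apart, and the ratio of HNRNPDL to HNRNPD was higher in every FBL knockdown library than in any control. HNRNPD and HNRNPDL are neighbours on chromosome 4, at 82352498 to 82374503 and 82422564 to 82430408, both on the minus strand.

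HNRNPC and RALY, related proteins with a single RRM each, differed. HNRNPC, which packages nascent RNA and binds uridine tracts, had 340, 354 and 334 CPM in FBL knockdown libraries and 613, 524 and 533 CPM in control libraries (-0.70 ± 0.09). Its 8 pseudogene rows held 73.3 ± 1.7 CPM in FBL knockdown libraries and 119 ± 12.2 CPM in control libraries (SD, n = 3 each). RALY had 452, 407 and 426 CPM in FBL knockdown libraries and 391, 480 and 436 CPM in control libraries. The RALY groups overlapped, with a log2 fold change of -0.02 ± 0.09 (edgeR adjusted p = 0.870), and its sign turned under 5 of the alternative settings. Per length, HNRNPC averaged 46.8 ± 1.4 RPKM in FBL knockdown libraries and 76.3 ± 6.4 RPKM in control libraries, and RALY 56.9 ± 3.8 RPKM in FBL knockdown libraries and 58.1 ± 6.2 RPKM in control libraries (SD, n = 3 each). These HNRNPC levels leave out the pseudogene rows. With them HNRNPC summed to 416 CPM in FBL knockdown libraries and 676 CPM in control libraries (log2 ratio -0.70), so the order of HNRNPC and RALY in FBL knockdown libraries is uncertain.

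The F and H proteins, which bind guanine tracts near splice sites, fell in 4 of 4 cases. HNRNPF had 104, 94.1 and 90.4 CPM in FBL knockdown libraries and 177, 171 and 163 CPM in control libraries (-0.83 ± 0.08). HNRNPH3 had 15.9, 15.7 and 16.1 CPM in FBL knockdown libraries and 30.8, 22.1 and 26.1 CPM in control libraries (-0.73 ± 0.12). The groups of both lay apart. HNRNPH1 was at 16.0, 18.7 and 19.3 CPM in FBL knockdown libraries and 30.1, 19.2 and 26.3 CPM in control libraries (-0.49 ± 0.15, edgeR adjusted p = 0.0285). Its groups overlapped through control replicate 2, and so did those of HNRNPH2, at 2.45, 3.01 and 2.67 CPM in FBL knockdown libraries and 4.66, 2.93 and 4.51 CPM in control libraries (-0.57 ± 0.18, edgeR adjusted p = 0.0302). HNRNPH1 lost its call in 10 of 17 alternative settings and HNRNPH2 in 9 of 16. The annotation shares 16.3% of the exon bases of HNRNPH2 with RPL36A-HNRNPH2 on the same strand, so the level of HNRNPH2 is uncertain.

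The poly(C)-binding proteins, built of KH domains, were split. HNRNPK had 101, 106 and 109 CPM in FBL knockdown libraries and 218, 169 and 180 CPM in control libraries (-0.84 ± 0.10). PCBP1, which also delivers iron to ferritin, had 213, 206 and 201 CPM in FBL knockdown libraries and 339, 349 and 324 CPM in control libraries (-0.71 ± 0.08). Both sets of groups lay apart, lower in FBL knockdown. PCBP2, the closest relative of PCBP1, had 377, 429 and 407 CPM in FBL knockdown libraries and 366, 340 and 338 CPM in control libraries. The PCBP2 groups lay apart in the other direction, but the difference of 0.22 ± 0.08 (log2, SE) did not pass (edgeR adjusted p = 0.0721). It passed as higher in 4 of 17 alternative settings, over all of which its adjusted p ranged from 0.0249 to 0.234. PCBP2 took 30.2% ± 1.8 of the summed RPKM of the PCBP1 and PCBP2 pair in FBL knockdown libraries and 18.6% ± 0.8 in control libraries (SD, n = 3 each).

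PCBP1 lacks introns and arose as a copy of PCBP2 messenger RNA, and the sequences in front of the pair are shown because its levels parted in FBL knockdown. They are the 250 bases before the RefSeq starts (GRCh38.p14, plus strand, 5′ to 3′), PCBP1 at chr2:70087227-70087476 and PCBP2 at chr12:53451852-53452101, with ETS cores (CCGGAAG) and GC boxes (GGGCGG) on either strand in capitals.
PCBP1: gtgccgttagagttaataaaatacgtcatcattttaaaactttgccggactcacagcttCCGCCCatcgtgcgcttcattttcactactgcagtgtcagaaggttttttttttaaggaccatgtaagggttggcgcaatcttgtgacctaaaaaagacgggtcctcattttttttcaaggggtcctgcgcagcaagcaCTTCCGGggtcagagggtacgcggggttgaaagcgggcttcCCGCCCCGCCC
PCBP2: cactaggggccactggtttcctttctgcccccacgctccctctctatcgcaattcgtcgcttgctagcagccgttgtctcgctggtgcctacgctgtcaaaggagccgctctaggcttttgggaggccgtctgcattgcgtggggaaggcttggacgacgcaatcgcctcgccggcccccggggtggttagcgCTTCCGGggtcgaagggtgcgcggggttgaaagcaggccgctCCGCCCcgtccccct
From the ETS core on, which begins 52 bases before the start in PCBP1 and 57 in PCBP2, 32 of 36 bases are identical. Over the whole window PCBP1 has 15 CpG dinucleotides and 50.0% G and C, and PCBP2 has 24 and 65.6%. GENCODE starts PCBP1 at 70087454, so the last bases of its window, with the end of the matched stretch, lie inside the GENCODE bounds of the gene. No sequence feature was tested against the counts.

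Exons of other genes overlap both. PCBP1-AS1, an antisense transcript, covers 52.2% of the annotated exon bases of PCBP1 and stood at 187 ± 2.9 CPM in FBL knockdown libraries and 284 ± 12.1 CPM in control libraries (SD, n = 3 each). For PCBP2 32.7% of exon bases are shared, most with MAP3K12, which stood at 76.1 ± 3.0 CPM in FBL knockdown libraries and 66.0 ± 3.3 CPM in control libraries (SD, n = 3 each). The strand setting of the counting is not given in the sources used here, so reads of these partners cannot be told apart from those of the members.

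Proteins that bind pyrimidine tracts or CA repeats were also divided between the main gene and its relative. PTBP1, a general splicing repressor, had 406, 371 and 384 CPM in FBL knockdown libraries and 495, 490 and 517 CPM in control libraries (-0.37 ± 0.08). PTBP3, a relative found mainly in blood cells, had 23.7, 28.5 and 29.2 CPM in FBL knockdown libraries and 23.3, 15.1 and 22.4 CPM in control libraries. The PTBP3 groups lay narrowly apart, higher in FBL knockdown (0.42 ± 0.15, edgeR adjusted p = 0.0563). It passed as higher in 6 of 17 alternative settings, over all of which its adjusted p ranged from 0.00163 to 0.177. HNRNPL, a regulator of exons beside CA repeats, had 114, 110 and 110 CPM in FBL knockdown libraries and 175, 172 and 173 CPM in control libraries (-0.64 ± 0.07). Its 2 pseudogene rows held 21.2 ± 0.8 CPM in FBL knockdown libraries and 32.9 ± 1.6 CPM in control libraries (SD, n = 3 each). HNRNPLL, which controls CD45 exon use in lymphocytes, had 23.7, 27.1 and 27.3 CPM in FBL knockdown libraries and 26.4, 20.7 and 24.0 CPM in control libraries. The HNRNPLL groups overlapped (0.14 ± 0.11, edgeR adjusted p = 0.351).

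**Figure D2:**
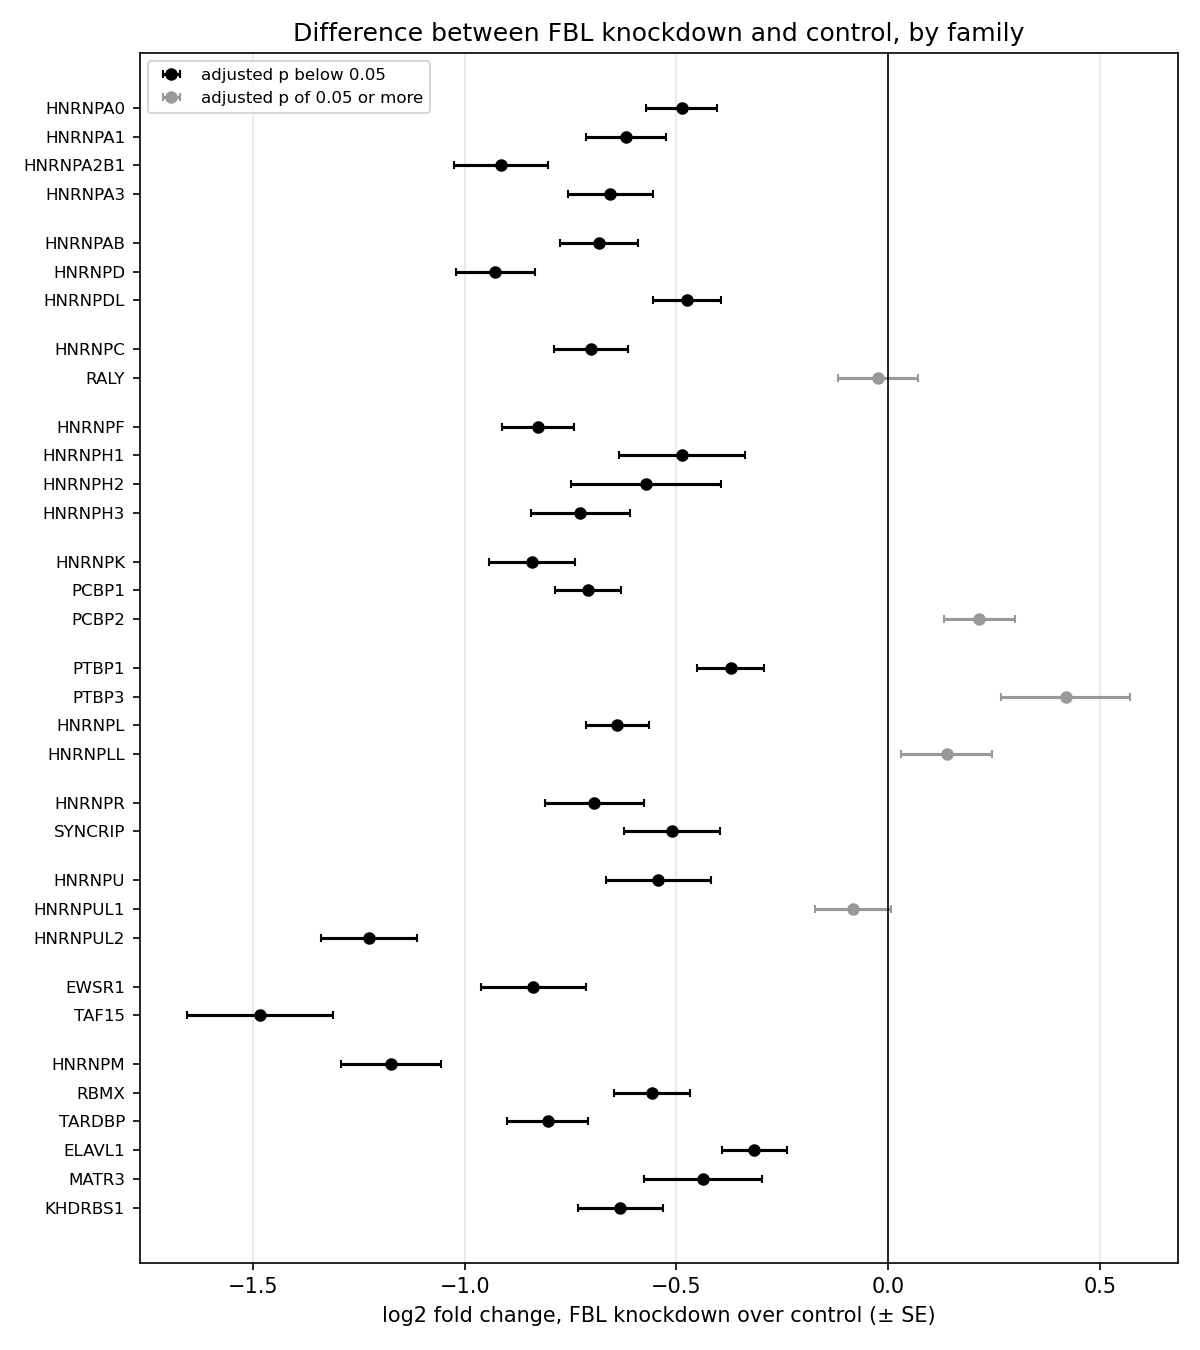
Log2 fold change of each member, FBL knockdown over control, with its SE (rows, grouped by family). Black points passed the adjusted p of 0.05 over all tested genes and grey points did not, and the grey points lie between -0.08 for HNRNPUL1 and 0.42 for PTBP3.

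HNRNPR and SYNCRIP (hnRNP Q), related proteins with roles in RNA transport and translation, both fell. HNRNPR had 17.8, 19.1 and 20.03 CPM in FBL knockdown libraries and 34.8, 25.5 and 31.8 CPM in control libraries (-0.69 ± 0.12). SYNCRIP had 34.9, 42.5 and 39.5 CPM in FBL knockdown libraries and 62.7, 48.1 and 55.6 CPM in control libraries (-0.51 ± 0.11). Neither gene's groups overlapped.

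The scaffold attachment proteins of the U group spanned the widest range of fold changes of these families. HNRNPUL2 fell by 1.23 ± 0.11 (log2, SE), with 4.28, 4.31 and 4.47 CPM in FBL knockdown libraries and 11.5, 9.88 and 9.20 CPM in control libraries. HNRNPU, which organises chromatin and binds pre-mRNA, had 61.6, 74.3 and 74.2 CPM in FBL knockdown libraries and 120, 87.1 and 98.6 CPM in control libraries (-0.54 ± 0.12). HNRNPUL1, the most abundant of the group per length, had 358, 355 and 313 CPM in FBL knockdown libraries and 383, 368 and 335 CPM in control libraries. The HNRNPUL1 groups overlapped, at -0.08 ± 0.09 (edgeR adjusted p = 0.512), and its sign turned in 1 alternative setting. A readthrough gene, HNRNPUL2-BSCL2, holds 44.1% of the exon bases of HNRNPUL2. It was counted at 0.132 ± 0.018 CPM in FBL knockdown libraries and 0.235 ± 0.032 CPM in control libraries (SD, n = 3 each). How reads in the shared exons were assigned is unknown, so the level of HNRNPUL2 is uncertain. For HNRNPU, 15.6% of exon bases are shared with COX20, which rose (0.30 ± 0.10, edgeR adjusted p = 0.0347).

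The remaining members fell in 6 of 6 cases. HNRNPM, a binder of GU-rich sequence that steers splicing in cell state changes, had 36.7, 34.9 and 37.4 CPM in FBL knockdown libraries and 98.6, 71.1 and 76.2 CPM in control libraries (-1.17 ± 0.12). TARDBP, which encodes TDP-43 and represses cryptic exons, had 7.97, 7.91 and 8.43 CPM in FBL knockdown libraries and 15.3, 13.7 and 13.4 CPM in control libraries (-0.80 ± 0.10). The groups of both lay clearly apart. KHDRBS1 (Sam68), which links signalling to splicing, had 36.7, 39.9 and 37.0 CPM in FBL knockdown libraries and 65.9, 51.3 and 59.0 CPM in control libraries (-0.63 ± 0.10). RBMX (hnRNP G) had 64.0, 69.2 and 67.4 CPM in FBL knockdown libraries and 108, 90.6 and 96.2 CPM in control libraries (-0.56 ± 0.09). ELAVL1 (HuR), a stabiliser of AU-rich messages, showed the smallest called fall, with 128, 127 and 126 CPM in FBL knockdown libraries and 161, 163 and 151 CPM in control libraries (-0.32 ± 0.08). The groups of these 3 genes also lay apart, and ELAVL1 lost its call in 2 of 17 alternative settings.

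MATR3 (matrin 3), a protein of the nuclear matrix, was counted at only 1.26 ± 0.07 CPM in FBL knockdown libraries and 1.70 ± 0.10 CPM in control libraries (SD, n = 3 each; -0.44 ± 0.14). The annotation holds overlapping MATR3 genes on chromosome 5, and 92.4% of the exon bases of the row used here are shared. The other row stood at 0.139 ± 0.017 CPM in FBL knockdown libraries and 0.095 ± 0.066 CPM in control libraries (SD, n = 3 each). The part of this overlap in the low counts was not tested, so they are a doubtful measure of the level of MATR3, and its call was lost in 9 of 16 alternative settings. For 22 members, under 10% of exon bases were shared and named pseudogenes held under 10% of the member's own control count. These limits were chosen after seeing the data. Of the 22, 18 fell, with a median log2 fold change of -0.59, and of the 11 members over a limit 10 fell. Among all tested genes 16.9% were called lower. Nothing about shared sequence is read from this split, since the members were listed with this contrast known.

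Ratios between relatives inside a library do not depend on how libraries are scaled. The log2 ratio of PCBP2 to PCBP1 lay between -1.35 and -1.12 in FBL knockdown libraries and between -2.22 and -2.07 in control libraries, a mean difference of 0.92. The ratio of RALY to HNRNPC lay between 0.16 and 0.37 in FBL knockdown libraries and between -0.69 and -0.17 in control libraries, a difference of 0.68. For HNRNPLL to HNRNPL the difference was 0.78 and for PTBP3 to PTBP1 it was 0.81. In these 4 pairs every FBL knockdown library was above every control. Each sets a member that was not called against 1 called lower, so the ratios in part restate those calls. The difference was -1.14 for HNRNPUL2 to HNRNPUL1 and -0.64 for TAF15 to EWSR1, and in both every FBL knockdown library was below every control. For HNRNPUL1, also not called, the ratio to HNRNPU differed by 0.45, and the groups overlapped. The ratios of HNRNPA3 (-0.03) and HNRNPA0 (0.13) to HNRNPA1 overlapped between the groups. So did those of HNRNPF (-0.36), HNRNPH3 (-0.25) and HNRNPH2 (-0.08) to HNRNPH1. These ratios come from the contrast with which the list was drawn up and are given without a test. How often the groups lie apart for ratios of other gene pairs was not determined.

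**Figure D3:**
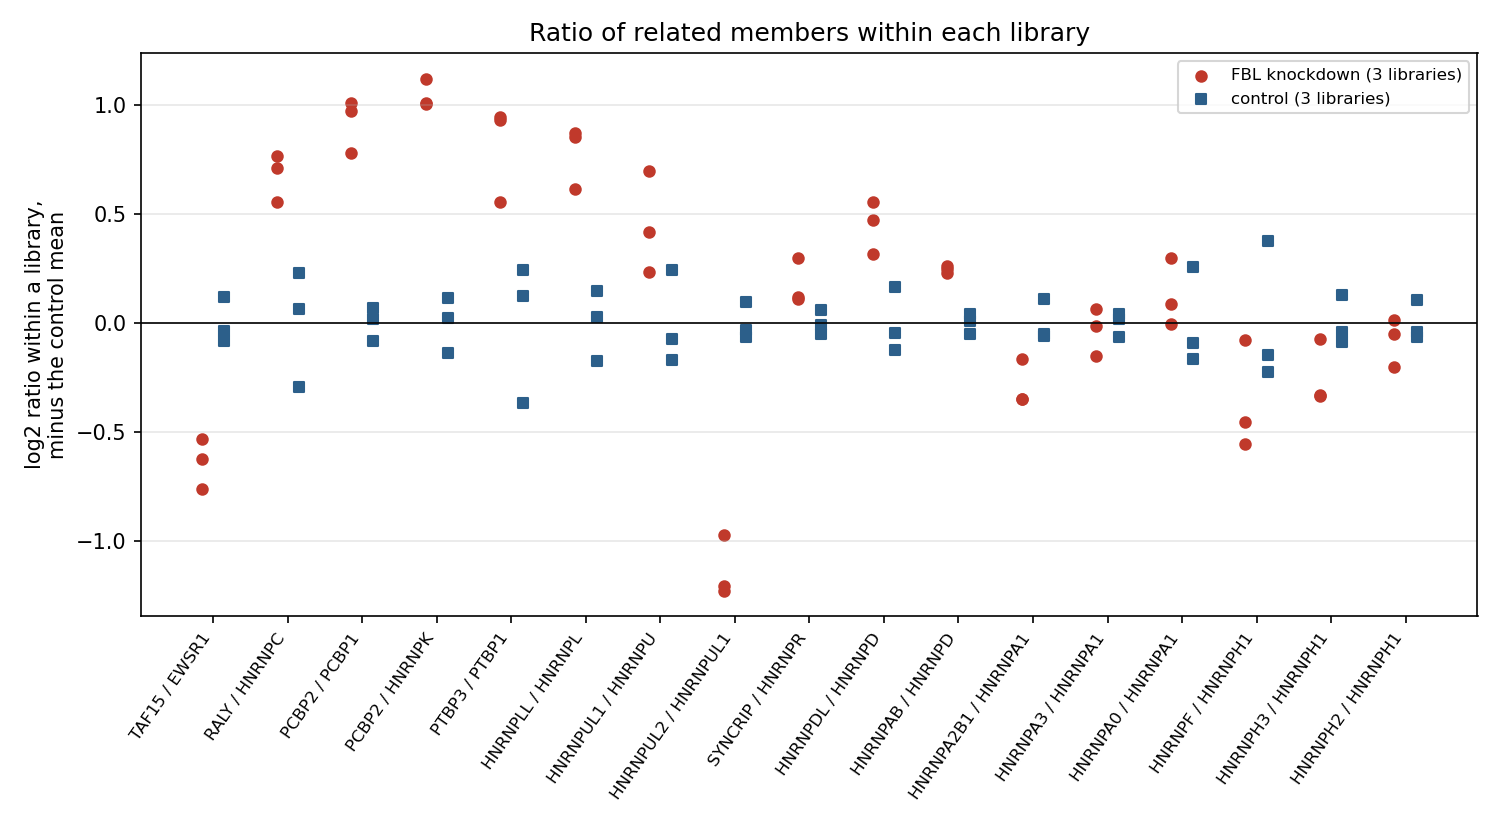
Log2 ratio of RPKM between related members within each library, minus the mean of the control libraries, for 17 pairs; circles are FBL knockdown and squares control libraries (3 each). PCBP2 to HNRNPK has the largest rise, 1.05, and HNRNPUL2 to HNRNPUL1 the largest fall.

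Compared per length, PCBP1 had the highest level of the members, 118 ± 4.9 RPKM in FBL knockdown libraries and 193 ± 7.6 RPKM in control libraries (SD, n = 3 each). HNRNPAB followed with 62.5 ± 3.6 RPKM in FBL knockdown libraries and 101 ± 9.9 RPKM in control libraries, and MATR3 came last with 0.197 ± 0.008 RPKM in FBL knockdown libraries and 0.268 ± 0.015 RPKM in control libraries (SD, n = 3 each). RALY ranked 3 in FBL knockdown libraries and 5 in control libraries, where its range overlapped those of HNRNPUL1 and HNRNPF. HNRNPC, without its pseudogene rows, ranked 7 in FBL knockdown libraries and 3 in control libraries, where its range overlapped that of PTBP1. In FBL knockdown libraries the range of RALY overlapped those of HNRNPAB, PTBP1 and HNRNPUL1, and the range of HNRNPC overlapped that of HNRNPUL1. The ranks of RALY and HNRNPC are therefore uncertain in both groups. PCBP2 was at 50.8 ± 2.7 RPKM in FBL knockdown libraries and 44.0 ± 1.8 RPKM in control libraries (SD, n = 3 each). Most neighbours below HNRNPA0 in the control order had overlapping ranges. The deposited RPKM carry TMM factors computed over all genes, and the CPM given here carry factors from the filtered genes, so CPM divided by length differs slightly from RPKM. Gene lengths are those of the deposited table and cover all annotated exons of a gene, so long rare exons lower a gene's RPKM.

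**Figure D4:**
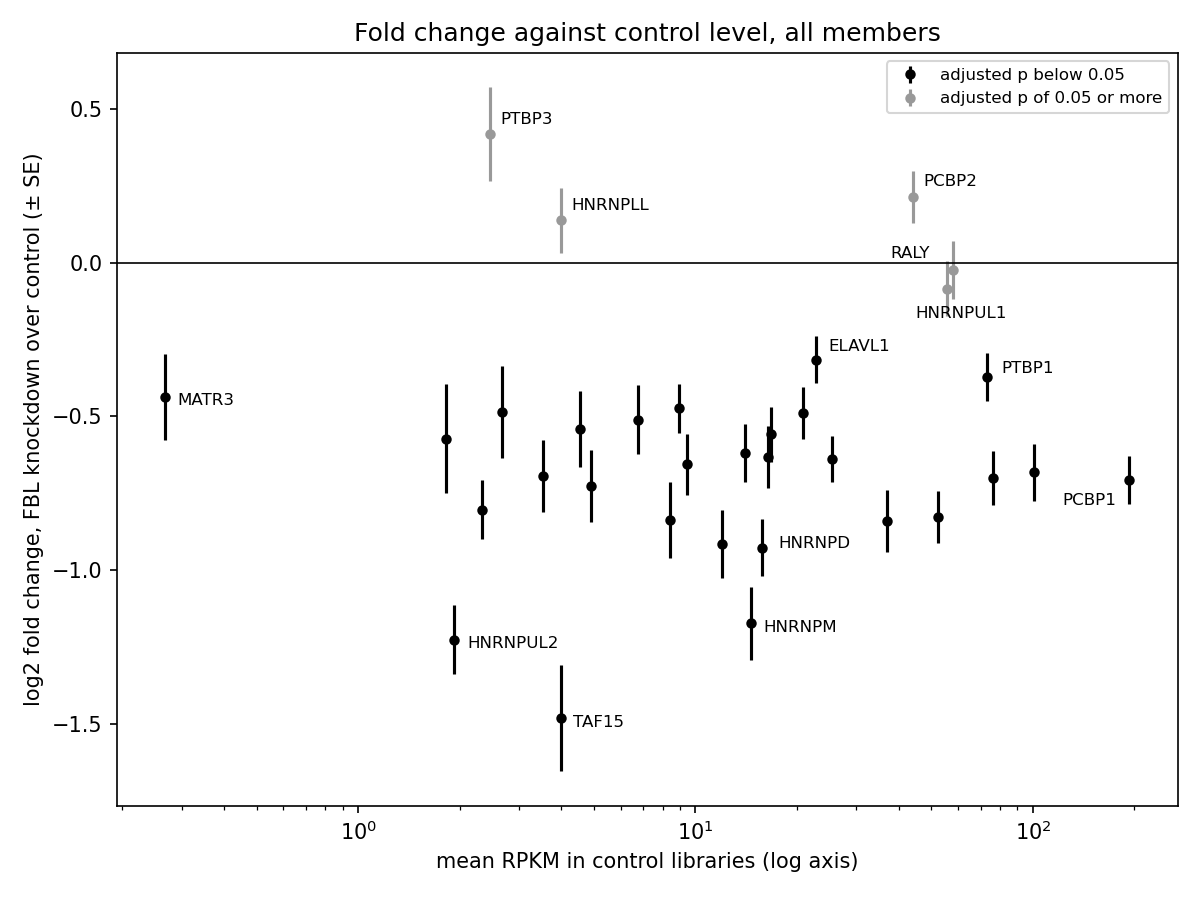
Log2 fold change (FBL knockdown over control, ± SE) against mean control RPKM on a log axis for the 33 members. Falls occur across the whole range of levels, and the grey points, which did not pass, lie either at 44.0 RPKM and above (PCBP2, HNRNPUL1, RALY) or among the low levels (HNRNPLL, PTBP3).

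Across the 33 members the Spearman correlation between the fold change and the control log2 RPKM was 0.06, given as a description over genes that share the same 6 libraries.

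Starts of 30 members were matched in the RefSeq promoter table, and TAF15, ELAVL1 and HNRNPA1 were not. The 250 bases before the most upstream RefSeq start had a median of 66.0% G and C and 25 CpG dinucleotides in members, against 57.6% and 10 over 27305 promoters. A GC box (GGGCGG, either strand) was present in 24 of 30 members and in 42.2% of all promoters, a CCAAT box (CCAAT) in 16 and in 33.0%, an ETS core (CCGGAAG) in 5 and in 8.78%. The TATA box letters (TATAAA) were found in 4 members and 11.2% of all promoters, and part of the NRF1 motif (GCATGCGC) in 1 and 2.83%. The E-box CACGTG, the letters that MYC-MAX and USF factors recognise, was present in 7 of 30 members, or 23.3%, and in 6.46% of all promoters. All 7 were among the members that fell, as were 25 of the 30 matched members, and HNRNPH2 is 1 of the 7. A match describes the letters and is not evidence of binding. CACGTG itself holds a CpG, and the 27305 promoters were not matched to the members for CpG content or expression. The difference in shares is therefore not evidence of enrichment. These sites are shown because they are the motif least common among promoters at large of those found in more than 5 members, with the E-box in capitals (GRCh38.p14, gene strand, 5′ to 3′).
HNRNPM (chr19:8444923-8444948, plus strand, 42 bases before the RefSeq start): tgcgtcgggtCACGTGggcgcgcagg
HNRNPD (chr4:82374003-82374028, minus strand, 27 before): gctctcgcgtCACGTGaccgggacgc
HNRNPA3 (chr2:177212713-177212738, plus strand, 71 before): gaaaacgcgtCACGTGacgactggcc
HNRNPH3 (chr10:68331633-68331658, plus strand, 50 before): ccggtcgaacCACGTGgggccctttc
HNRNPDL (chr4:82430574-82430599, minus strand, 127 before): agcccgagacCACGTGggcaggaaaa
HNRNPH2 (chrX:101408170-101408195, plus strand, 42 before): gagagttgctCACGTGaccgagatct
KHDRBS1 (chr1:32013633-32013658, plus strand, 225 before): agcgccgagtCACGTGgaaaacgaaa
RefSeq and GENCODE starts differ, and the HNRNPA3, HNRNPD, HNRNPH3 and HNRNPM sites lie inside the GENCODE bounds of their genes. HNRNPH2 and KHDRBS1 each hold a further copy in the window. The letters next to the E-box differ among the members.

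Related genes outside the list were read in the same fit. Of 7 tested paralogues of members, 3 fell, 3 rose and 1 did not pass. HNRNPA1L2 fell (-0.58 ± 0.11, uncertain since it resembles HNRNPA1 closely). PCBP4 rose by 0.69 ± 0.11 to 41.6 ± 4.0 CPM in FBL knockdown libraries, against 25.7 ± 3.4 CPM in control libraries, and KHDRBS3 by 0.56 ± 0.10 to 20.5 ± 1.8 CPM, against 13.9 ± 0.8 CPM in control libraries (log2, SE; CPM with SD, n = 3 each). A list of importins, arginine methyltransferases and the PRMT5 cofactors WDR77 and CLNS1A, which carry hnRNPs into the nucleus or act in the methylation of their arginines, had 10 of 15 genes lower, both cofactors among them, and the other 5 did not pass (median -0.39). TNPO1, the main importer of hnRNP A1 and named here after its values were seen, did not pass (0.09 ± 0.14, edgeR adjusted p = 0.667). PRMT1, the main such methyltransferase, was at 273 ± 36.1 CPM in FBL knockdown libraries and 418 ± 17.1 CPM in control libraries (SD, n = 3 each; -0.61 ± 0.10). PRMT7 (-0.70 ± 0.10), PRMT6 (-0.65 ± 0.08) and the importin KPNA2 (-0.83 ± 0.13) fell too.

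Of 25 tested regulators of alternative splicing outside these families 9 fell and 3 rose (median log2 fold change -0.16). FUBP1 (-0.74 ± 0.16), RBM5 (-0.71 ± 0.13), RBM10 (-0.68 ± 0.10) and the cold-inducible RBM3 (-0.68 ± 0.09) had the largest changes among those at a mean of at least 1 CPM. SR splicing factors, which often oppose hnRNPs at the same exons, were lower for 9 of 14 genes and higher for 1 (median -0.39). SRSF5 (-0.80 ± 0.12), TRA2A (-0.65 ± 0.12), SRSF2 (-0.59 ± 0.08) and SRSF4 (-0.55 ± 0.08) fell furthest. Over these 4 lists together 31 of 61 tested genes were called lower and 7 higher. Of all tested genes, 16.9% were called lower and 15.7% higher. The share called lower was 27.8% at 10 to 100 CPM and 27.5% at 100 CPM or more. These lists too were drawn up with earlier results of these data known, so nothing is read from their counts.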

How the data were processed

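Per the submitters' processing notes, the build was GRCh38 and the tools were featureCounts, HISAT2, edgeR and cutadapt 1.18. The authors deposited whole-number counts per Ensembl gene with gene lengths, and RPKM values. All 191796 deposited RPKM values were recomputed from the counts within a relative tolerance of 1e-06. The annotation release, strand setting and handling of reads matching several places were not given in the sources used here. Every value column was used.

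Counts were filtered (filterByExpr, minimum count 10, minimum total 15; 18486 genes left), scaled by TMM and tested across all genes with edgeR 4.0.16 in R 4.3.3 (quasi-likelihood test on group, Benjamini-Hochberg adjustment, threshold 0.05). Standard errors came from the F statistic. Alternatives used limma 3.58.1, DESeq2 1.42.0, other scalings, filters and library sets. limma-trend ran on log2(RPKM + 1) and log2(RPKM + 0.1), a scale that shrinks fold changes of weakly expressed genes. On simulated counts for FBL knockdown against control (18269 genes), 65% of 1.5-fold and 96% of 2-fold changes were recovered, with 6.94% false calls. The changed genes were all at 1 CPM or more and far fewer than those called in the real data. These rates therefore need not hold for the real contrast.

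Positions and shared exon bases came from GENCODE 29 on GRCh38, where 30452 of 31848 matched genes had the deposited length. Promoters are RefSeq's on GRCh38.p14. All members were named, with FBL and up to 4 called genes of each related list at 1 CPM or more, largest change first. A paralogue that this rule names is not reported here. Members and lists were chosen with earlier results of these data known.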

Additional observations from a re-analysis of the deposited data

How the results depend on the processing

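Of the 28 members called lower, 23 stayed lower and past the threshold in all 17 alternative settings in which they were tested. HNRNPH1, HNRNPH2, MATR3, ELAVL1 and PTBP1 lost the call in at least 1, and no called member changed direction. Members called lower numbered 23 to 28 when 1 library was left out, with the fewest without FBL knockdown replicate 3. The median log2 fold change over all members, called or not, then lay between -0.69 and -0.56, and 23 to 34 related genes were lower. None was called higher as reported, but 1 was with RLE scaling, 1 unfiltered, 1 with the stricter filter, 2 with upper-quartile scaling, 2 in DESeq2 and 0 to 2 with 1 library left out, each being PTBP3, PCBP2 or both. The sign of RALY turned with upper-quartile scaling (0.041) and the stricter filter (0.026). Its log2 fold change ran from -0.0996 to 0.0501 with 1 library left out, turning without FBL knockdown replicate 2 (0.013) or 3 (0.0087) and without control replicate 2. HNRNPUL1 ran from -0.14 to 0.0056 and turned without FBL knockdown replicate 3.

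Over all genes, leaving out 1 library gave 3898 to 6909 calls, 1836 to 3624 lower and 1834 to 3285 higher. There were 3898 without FBL knockdown replicate 2, 4004 without FBL knockdown replicate 3, and 1895 higher without control replicate 3. The stricter filter, which tests fewer genes, called 1924 higher. With the replicate number as a block, 3774 genes were called (1958 lower, 1816 higher), 24 members among the lower ones. The deviations of same-numbered samples from their group means had correlations of -0.28, -0.20 and 0.04. With 3 samples per group, these values cannot decide whether same-numbered samples shared a culture or batch, which the labels do not state. The cause of these shifts was not tested.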
